A study of Mus musculus with 6 samples.

Results

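The 33 genes described here encode the chaperones and folding enzymes of the endoplasmic reticulum (ER), the sensors of the unfolded protein response (UPR), the machinery that sends misfolded ER proteins to degradation, and the channel through which new proteins enter the ER. They were picked by gene name from the 54532 genes of the count table. All 33 were found, and all 33 passed the filter on low counts, which kept 15307 genes. By role they comprise 17 chaperones and folding enzymes, 4 sensors (with Xbp1), 8 degradation genes and 4 translocon genes. The samples were 6 mRNA libraries from MLE12 cells, a mouse lung alveolar epithelial line transformed with the large T antigen of simian virus under the surfactant protein C promoter, given as strain C57BL/6J in the labels. In the 3 Ctrl shRNA libraries the cells were infected with lentivirus carrying empty LV vectors. In the 3 SI shRNA libraries they were infected together with a lentivirus silencing Idh3α, a subunit of mitochondrial isocitrate dehydrogenase, and a second one silencing Slc25a1, the mitochondrial citrate carrier. Each lentivirus was used at an MOI of 50, the medium was replaced at 16 h, and culture went on for 80 h more in every group. Knockdown cells thus took 2 viruses and control cells 1, as far as the protocol states, so the number of viruses and the silencing cannot be told apart. One cell line and 1 shRNA per target were used, and nothing states that the 3 libraries of a group came from separate cultures, so the p-values measure only the spread between these libraries.

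When unfolded proteins build up in the ER, the chaperone Hspa5 (BiP) leaves the sensors Ern1 (IRE1α), Eif2ak3 (PERK) and Atf6. Activated Ern1 splices Xbp1 mRNA into the form that encodes an active transcription factor, Atf6 is cut in the Golgi into another, and Eif2ak3 phosphorylates eIF2α, which lowers general translation and favours that of Atf4. Atf6 and spliced Xbp1 raise the genes of chaperones and of ER-associated degradation, whereas Atf4 raises genes of amino acid supply and stress such as Asns, Chac1, Trib3 and Ddit3 (CHOP). The ATF4 branch also answers amino acid shortage, heme loss and mitochondrial stress through other eIF2α kinases. Alveolar type II cells carry a heavy secretory load, mainly surfactant proteins, and rely on these genes.

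The DNA elements of this response were searched in RefSeq promoter windows of build GRCm38.p6, which run from 250 bases before to 50 bases after each gene's start. A window was matched for 27 of the 33 members, the others being Manf, Derl1, Hyou1, Sec61a1, Atf6 and Hspa13. The ER stress response element (ERSE), searched on both strands as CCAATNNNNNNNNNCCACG, was held by 9 of the 27 members (33.3%), against 37 of all 27025 genes with a window (0.137%) and 0.182% of the 10450 of them that were tested here. The related ERSE-II, ATTGGNCCACG, was held by Dnajb11 and Herpud1 among the members and by 0.0444% of all genes. The letters of the UPR element that spliced Xbp1 binds, TGACGTGG, were in none of the 27 windows and in 0.714% of all genes (1.06% of those tested). The Atf4 element (CARE), searched as TGATGNAA, was held by 1 member, Herpud1 (3.70% of the 27), by 4.51% of all genes and by 2.67% of those tested. The ERSE and ERSE-II matches of members are printed because these elements were more frequent here than in all genes. Most of the 27 windows held neither. Matched letters are in capitals with 6 bases on either side, and each match is read 5′ to 3′ on the strand of its gene. Hsp90b1, Calr and Canx lie on the - strand and the other genes on the + strand. A match read on the other strand starts with CGTGG. A match is only a description of the letters, not evidence of binding. The search letters of the different elements did not overlap in these windows.
Hspa5, chr2:34772019-34772049: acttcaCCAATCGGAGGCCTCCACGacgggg
Hsp90b1, chr10:86705632-86705662: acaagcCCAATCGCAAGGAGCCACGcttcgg
Hsp90b1, second copy, chr10:86705527-86705557: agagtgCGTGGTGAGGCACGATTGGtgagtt
Calr, chr8:84847069-84847099: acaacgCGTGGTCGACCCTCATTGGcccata
Canx, chr11:50325794-50325824: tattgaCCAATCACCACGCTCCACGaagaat
Pdia6, chr12:17266485-17266515: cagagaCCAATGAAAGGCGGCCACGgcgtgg
Dnajc3, chr14:118937821-118937851: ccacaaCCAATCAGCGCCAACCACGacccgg
Creld2, chr15:88819514-88819544: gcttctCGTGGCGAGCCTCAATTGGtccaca
Syvn1, chr19:6046526-6046556: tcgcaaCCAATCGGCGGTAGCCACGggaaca
Derl3, chr10:75893236-75893266: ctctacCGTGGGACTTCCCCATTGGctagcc
Herpud1, ERSE-II, chr8:94386371-94386393: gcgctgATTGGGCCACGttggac
Dnajb11, ERSE-II, chr16:22857846-22857868: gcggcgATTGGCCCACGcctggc

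The promoters of Hspa5 and Herpud1 are given over the 250 bases before the start, because these were the members with the lowest adjusted p-values in either direction by DESeq2. Both lie on the + strand. In Hspa5 the capitals mark the ERSE. In Herpud1 they mark first a CARE and then the ERSE-II. The span of Hspa5 in the count table, chr2:34771970-34777547, begins ahead of this RefSeq start, and that of Herpud1, chr8:94386438-94395377, just after it.
Hspa5, chr2:34771840-34772089: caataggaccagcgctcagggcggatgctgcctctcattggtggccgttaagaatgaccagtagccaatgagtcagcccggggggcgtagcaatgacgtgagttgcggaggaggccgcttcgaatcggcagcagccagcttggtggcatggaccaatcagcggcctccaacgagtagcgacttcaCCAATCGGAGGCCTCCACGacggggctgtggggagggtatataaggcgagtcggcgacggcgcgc
Herpud1, chr8:94386179-94386428: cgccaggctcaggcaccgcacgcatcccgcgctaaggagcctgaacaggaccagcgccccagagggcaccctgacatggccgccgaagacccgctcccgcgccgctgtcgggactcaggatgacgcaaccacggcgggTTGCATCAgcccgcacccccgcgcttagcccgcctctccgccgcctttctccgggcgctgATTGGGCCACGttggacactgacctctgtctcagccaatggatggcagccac

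The libraries held 27273502 to 28535653 counts each. Control replicate 2 stood apart from the other 5. Its mitochondrial genes took 6.49% of counts against 1.57% to 1.80%, 16681 genes were detected against 19902 to 23147, and the biological coefficient of variation of the fit was 0.263 with it and 0.102 without it. The members' fold changes are therefore given with and without that library. Among the members, its level differed by more than 0.25 on the log2 scale from the mean of the other 5 libraries for 13 of 33 genes, against 1 to 4 genes for each other library. Of the targeted genes, Slc25a1 stood at 103, 98.7 and 108 normalised read counts (CPM) in the controls and at 68.9, 69.6 and 63.0 in the knockdown, and Idh3a at 79.8, 137 and 93.0 against 58.5, 57.9 and 55.5. Neither passed the edgeR test over 6 libraries (adjusted p = 0.104 and 0.254), and both did without control replicate 2 (adjusted p = 0.00649 and 0.0142). Over 6 libraries DESeq2 called both lower (adjusted p = 6.37e-08 and 0.0170), and so did voom with quality weights (adjusted p = 0.00103 and 0.00289). Of 9 lung epithelial markers 7 were tested, with a summed level of 737 to 780 CPM in control cells and 662 to 719 in the knockdown. Sftpc was called lower by edgeR without control replicate 2 (adjusted p = 0.0438), Sftpb did not exceed 2.49 CPM, and Krt18 and Cldn7 stayed below 0.53 CPM in every library. Voom with quality weights called Sftpc and Nkx2-1, a lung epithelial transcription factor, lower (adjusted p = 0.0184 and 0.0294), and the fibroblast marker Pdgfra higher (adjusted p = 0.0312), at 2.68, 2.23 and 2.23 CPM in control cells and 3.43, 3.72 and 3.91 in the knockdown. The immune markers summed to 1.92 to 2.48 CPM in control cells and 2.505 to 3.06 in the knockdown, with Ptprc and Adgre1 at 0 throughout. The endothelial markers summed to 36.7 to 45.8 and 31.9 to 33.3 CPM, nearly all from Tek, with Cdh5 at no more than 0.0336. The fibroblast markers summed to 346 to 1234 and 317 to 345 CPM, mostly from Dcn, which reached 1211 in control replicate 2. The part of these markers in the results was not tested. In bulk RNA a change in the mix of cells and a change of RNA per cell cannot be told apart.

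Whether the silencing of Idh3α and Slc25a1 moved the ER folding genes as a set was asked first. Across the 6 libraries no member passed edgeR's quasi-likelihood test at an adjusted p under 0.05, where 0.0653% of all genes did. At an unadjusted p under 0.05, 6 members were higher and 1 was lower in the knockdown, against 7.47% and 6.65% of all genes. When control replicate 2 was left out, edgeR called 1 member lower, Herpud1, and 0 higher, against 0.675% and 1.11% of all genes. There the unadjusted counts were 6 higher and 2 lower, against 9.54% and 10.3%. DESeq2 on 6 libraries called Hspa5 higher and Herpud1 lower (1.73% and 1.25% of all genes), and without control replicate 2 it called Hspa5, Calr and Hyou1 higher and Herpud1 lower (3.46% and 2.44%). The limma voom fit with quality weights, which gave control replicate 2 a weight of 0.101, called Hspa5, Calr, Hyou1, Eif2ak3 and Syvn1 higher and Herpud1 lower (8.67% and 6.34%). The groups did not overlap for 7 members that were higher in the knockdown and 2 that were lower, where 14.7% and 10.7% of all genes did so. As shares of the 33 members, the higher counts were 18.2% at an unadjusted p over 6 libraries, 15.2% with quality weights and 21.2% for groups that did not overlap, each above the share of all genes. The lower counts were 3.03%, 3.03% and 6.06%, each below it. A single called member is 3.03% of the 33, against the 1.73% and 1.25% of DESeq2 and the 0.675% called lower by edgeR without control replicate 2. DESeq2 without that library called 9.09% of the members higher and 3.03% lower, against 3.46% and 2.44%. By edgeR without control replicate 2 the share of members called higher was 0%, below the 1.11% of all genes. No test of the set was run on these shares, and the genes compared were not matched for expression level.

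The median log2 fold change (knockdown minus control) over the 33 members was 0.02, with 19 positive and 14 negative, and over all genes tested it was -0.01. The member median was 0.00 without knockdown replicate 1 and 0.05 without knockdown replicate 3, and with no count filter it lay below that of all genes (0.03 against 0.05). By class the medians were 0.03 for chaperones, 0.15 for sensors, -0.06 for degradation and -0.11 for the translocon. With that control left out they were 0.04, 0.16, -0.06 and -0.02, and 0.03 over all members. Scaling by library size only raised the median of all genes by 0.17 and that of the members to 0.20, so directions within that shift depend on the scaling. The summed level of the 17 chaperones was 5621, 5729 and 5769 CPM in control cells and 6381, 6298 and 6072 in the knockdown. These sums did not overlap, and P4hb and Calr hold the largest shares of them. The 4 sensor genes summed to 217, 194 and 208 CPM against 226, 228 and 234, also without overlap. The degradation class summed to 735, 677 and 706 CPM against 697, 685 and 676, and the translocon to 916, 1166 and 954 against 976, 853 and 949, and both overlapped. Over all 33 members the sums were 7489, 7766 and 7637 CPM against 8280, 8064 and 7930, without overlap, and the chaperones make up most of them.

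**Figure D1:**
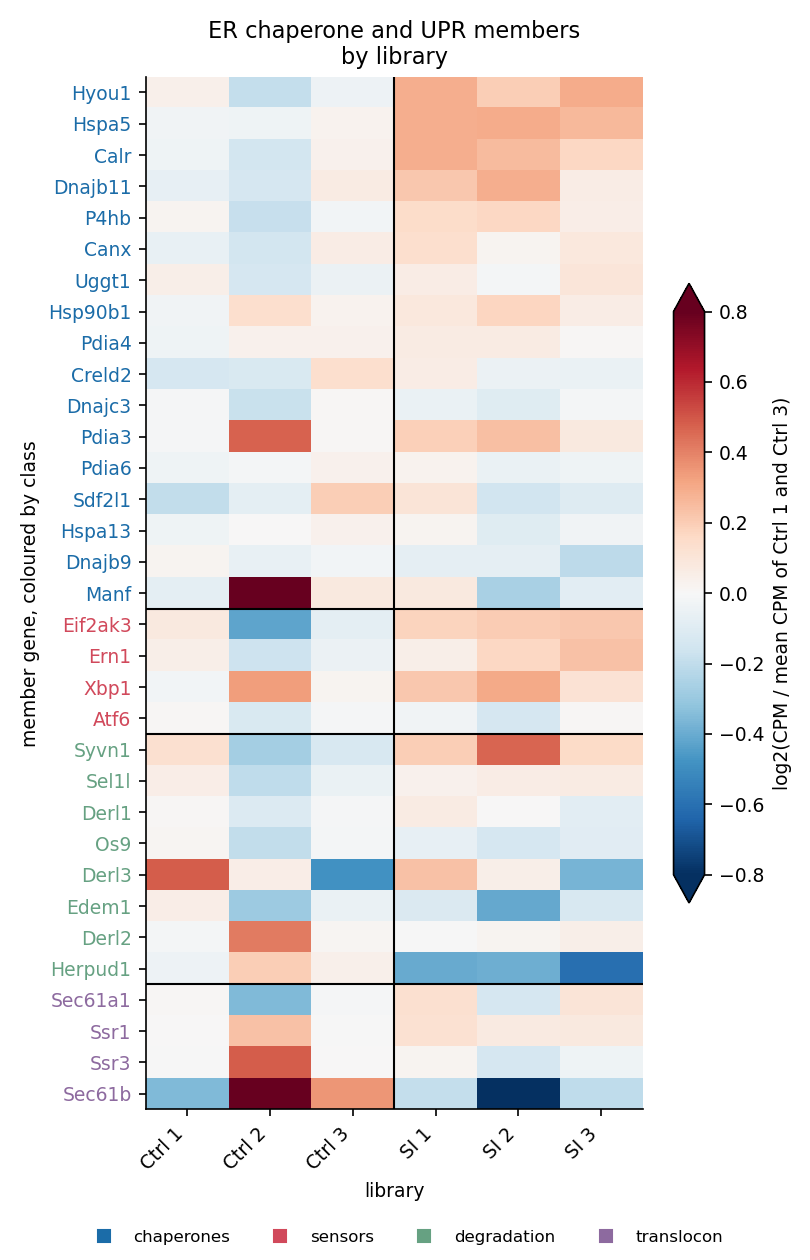
Level of each of the 33 members (rows, grouped and coloured by class) in each of the 6 libraries (columns), as log2 of its CPM over the mean CPM of control replicates 1 and 3; colours saturate at 0.8 on either side. Hyou1, Hspa5 and Calr are high in all 3 knockdown libraries, Herpud1 is low in all 3, and control replicate 2 (Ctrl 2) stands out for Manf, Pdia3, Ssr3 and Sec61b.

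Among the chaperones, Hspa5, Hyou1 and Calr were higher in every knockdown library than in every control, by 1.22-fold to 1.25-fold. Hspa5, the ER Hsp70 that binds both unfolded proteins and the UPR sensors, stood at 522, 520 and 542 CPM in control cells and 650, 655 and 636 in the knockdown. The control mean was 528 ± 12.5 and the knockdown mean 647 ± 9.95 (SD, n = 3 each), and control replicate 2 lay with the other controls. The log2 fold change was 0.29 ± 0.09 (SE), with an edgeR adjusted p of 0.315, and 0.27 ± 0.06 without control replicate 2, with an edgeR adjusted p of 0.0789. DESeq2 on 6 libraries gave it an adjusted p of 0.000950. Over the 18 alternative settings its log2 fold change lay between 0.26 and 0.46, its adjusted p between 0.000484 and 0.675, and 3 settings called it.

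Hyou1, an Hsp110-like protein that exchanges the nucleotide on Hspa5, stood at 234, 199 and 220 CPM in control cells and 278, 261 and 278 in the knockdown. The lowest knockdown library was above the highest control. The log2 fold change was 0.32 ± 0.09 (edgeR adjusted p = 0.308) and 0.25 ± 0.07 without control replicate 2 (edgeR adjusted p = 0.121). Calr, the lectin chaperone calreticulin, was named here after its values were seen. It stood at 810, 751 and 852 CPM in control cells and 1015, 991 and 934 in the knockdown, again with no overlap. Its log2 fold change was 0.29 ± 0.10 (edgeR adjusted p = 0.346) and 0.23 ± 0.07 without control replicate 2 (edgeR adjusted p = 0.130). Both were called by 2 of the 18 alternatives, with adjusted p between 0.00918 and 0.675 for Hyou1 and between 0.0182 and 0.675 for Calr.

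**Figure D2:**
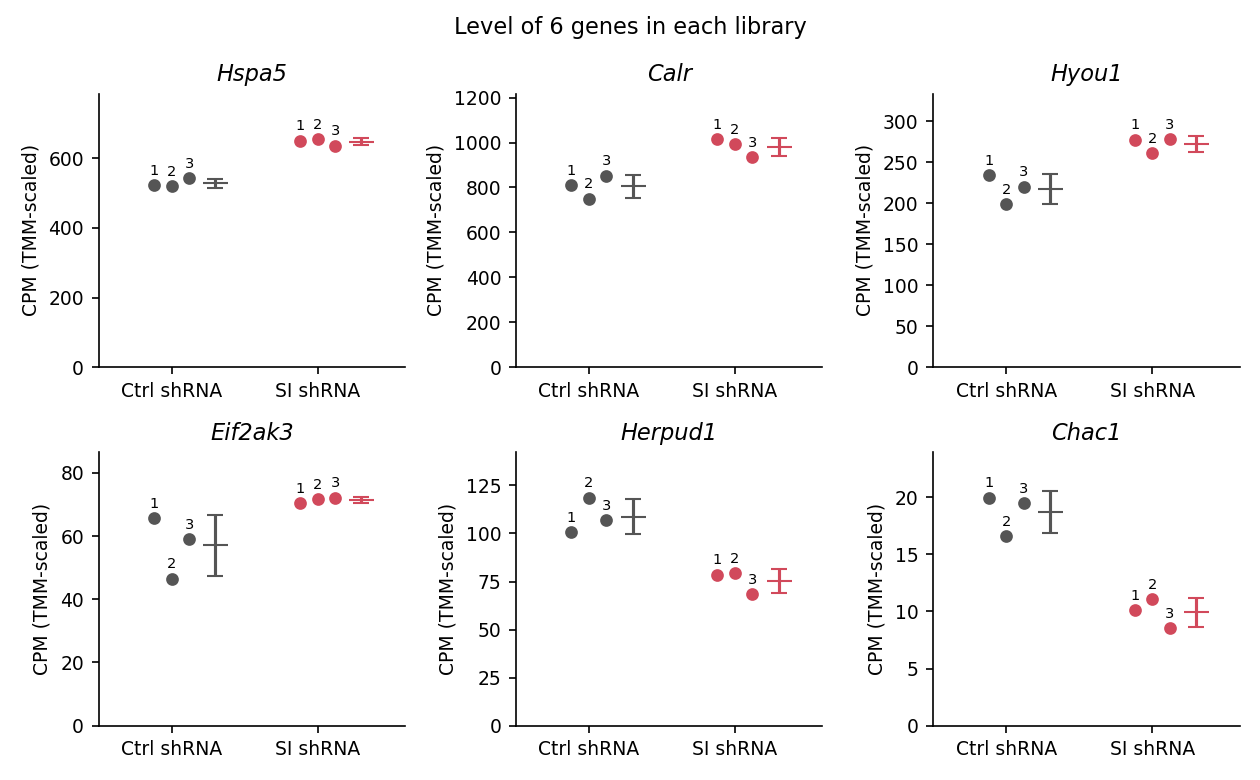
Level of 6 genes in each library (vertical axis, CPM with TMM-scaled library sizes, from 0; numbered points are replicates, bars show mean ± SD, n = 3). The genes shown are all among those whose groups do not overlap. Hspa5, Calr, Hyou1 and Eif2ak3 are higher in SI shRNA, and Herpud1 and Chac1, an Atf4 target outside the members, are lower. Of the 33 members 7 were higher and 2 lower without overlap (14.7% and 10.7% of all genes), and the rest overlapped.

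Hsp90b1 (GRP94), the ER Hsp90, which is raised together with Hspa5 in ER stress, stood at 500, 558 and 518 CPM in control cells and 540, 574 and 531 in the knockdown. The groups overlapped over 6 libraries, but not without control replicate 2. The log2 fold change was 0.06 ± 0.09 and 0.10 ± 0.07 without that library. Canx, the membrane-bound relative of Calr, had a log2 fold change of 0.13 ± 0.10, and of 0.07 ± 0.07 without control replicate 2. Uggt1, which marks misfolded glycoproteins for another round with both lectins, had 0.09 ± 0.09 and 0.04 ± 0.07. Dnajb11 (ERdj3), a co-chaperone of Hspa5, reached 0.23 ± 0.09, and 0.18 ± 0.08 without that control, but overlapped by a narrow margin, with 148 CPM in the lowest knockdown library and in the highest control.

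Of the protein disulfide isomerases, P4hb had a log2 fold change of 0.18 ± 0.11 with no overlap between the groups (1069 to 1231 CPM against 1259 to 1360), and of 0.11 ± 0.06 without control replicate 2. Pdia4 had 0.03 and 0.04 in these fits, and Pdia6 -0.02 and -0.03. Pdia3, which works with Calr and Canx, stood at 531, 740 and 538 CPM in control cells and 610, 630 and 565 in the knockdown. Its log2 fold change was 0.00 ± 0.16 with control replicate 2 and 0.16 ± 0.07 without it. Pdia3 was not called in either fit, and its groups overlapped only with that library included.

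The remaining chaperones other than Manf had log2 fold changes between -0.10 and 0.02, and between -0.13 and -0.03 without control replicate 2. Dnajb9 (ERdj4), a co-chaperone and a typical target of spliced Xbp1, stood at 18.02, 17.1 and 17.5 CPM in control cells and 16.9, 16.9 and 15.4 in the knockdown, lower without overlap, with a log2 fold change of -0.10 ± 0.09, and of -0.13 ± 0.10 without that library. Sdf2l1 and Creld2, both strongly induced in ER stress, had log2 fold changes of -0.03 ± 0.13 and 0.02 ± 0.10, which became -0.07 ± 0.12 and -0.03 ± 0.09 without it. Dnajc3 (p58IPK), a co-chaperone of Hspa5, had 0.00 ± 0.08 and -0.06 ± 0.06, its groups overlapping only with control replicate 2 included. Hspa13 had -0.04 ± 0.07 in both fits. None of these was called by edgeR, DESeq2 or voom, with all 6 libraries or, for edgeR and DESeq2, with 5.

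Manf, a secreted ER stress protein, had the largest log2 fold change of the chaperones, -0.56 ± 0.33, and it rested on 1 library. It stood at 123, 285 and 137 CPM in control cells and 137, 109 and 123 in the knockdown, and without control replicate 2 the log2 fold change was -0.09 ± 0.10. Its span in the count table overlaps Rbm15b on the same strand and Dcaf1 on the other, and how reads in the overlaps were counted is not given in the sources used here.

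The 3 sensors and Xbp1 were measured at modest levels. Eif2ak3 (PERK) stood at 65.6, 46.5 and 59.0 CPM in control cells and 70.4, 71.6 and 72.2 in the knockdown. The groups did not overlap, the knockdown libraries lay close together, and control replicate 2 was the lowest of the 6. The log2 fold change was 0.32 ± 0.13 (edgeR adjusted p = 0.352) and fell to 0.19 ± 0.07 without that library (edgeR adjusted p = 0.214). Of the 18 alternatives only voom with quality weights called it, with adjusted p from 0.0293 to 0.677 over them all.

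Ern1 (IRE1α) stood at 46.7, 40.3 and 43.9 CPM in control cells and 46.8, 50.9 and 53.4 in the knockdown, so that the lowest knockdown library and the highest control nearly touched. Its log2 fold change was 0.21 ± 0.09 and 0.14 ± 0.08 without control replicate 2. Xbp1 stood at 30.3, 38.8 and 31.3 CPM in control cells and 35.7, 38.0 and 33.3 in the knockdown. Its log2 fold change was 0.09 ± 0.12, and 0.20 ± 0.08 without control replicate 2 (edgeR adjusted p = 0.236), where the groups no longer overlapped. Over the 18 alternatives it lay between 0.03 and 0.30. The values are counts per gene, which cannot separate the spliced from the unspliced Xbp1 mRNA. Atf6 stood at 74.6, 68.1 and 73.8 CPM against 72.8, 67.5 and 74.8, with a log2 fold change of -0.01 ± 0.08 whose sign changed under 4 of the 18 alternatives. The activity of all 3 sensors is set mainly on the protein, which these data did not measure.

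In the degradation class Herpud1 and Syvn1 had the largest log2 fold changes over 6 libraries, -0.53 and 0.36, and the other 6 lay between -0.13 and 0.12. Without control replicate 2 Edem1 lay at -0.22, near the size of Syvn1 (0.26), and of the class edgeR called only Herpud1. Herpud1, an ER membrane protein that organises the ubiquitin ligase complex of ER-associated degradation and is induced by every branch of the UPR, stood at 101, 119 and 107 CPM in control cells and 78.5, 79.2 and 68.3 in the knockdown. Every knockdown library was below every control. The control mean was 108.7 ± 9.16 CPM and the knockdown mean 75.3 ± 6.06 (SD, n = 3 each). The log2 fold change was -0.53 ± 0.10 (edgeR adjusted p = 0.180), a level 0.693-fold that of the controls. In the 5 libraries without control replicate 2, Herpud1 fell by 0.47 on the log2 scale, with an SE of 0.08 and an edgeR adjusted p of 0.0312. The log2 fold change lay between -0.58 and -0.34 over the 18 alternatives, of which 6 called it, with adjusted p from 7.55e-05 to 0.675.

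**Figure D3:**
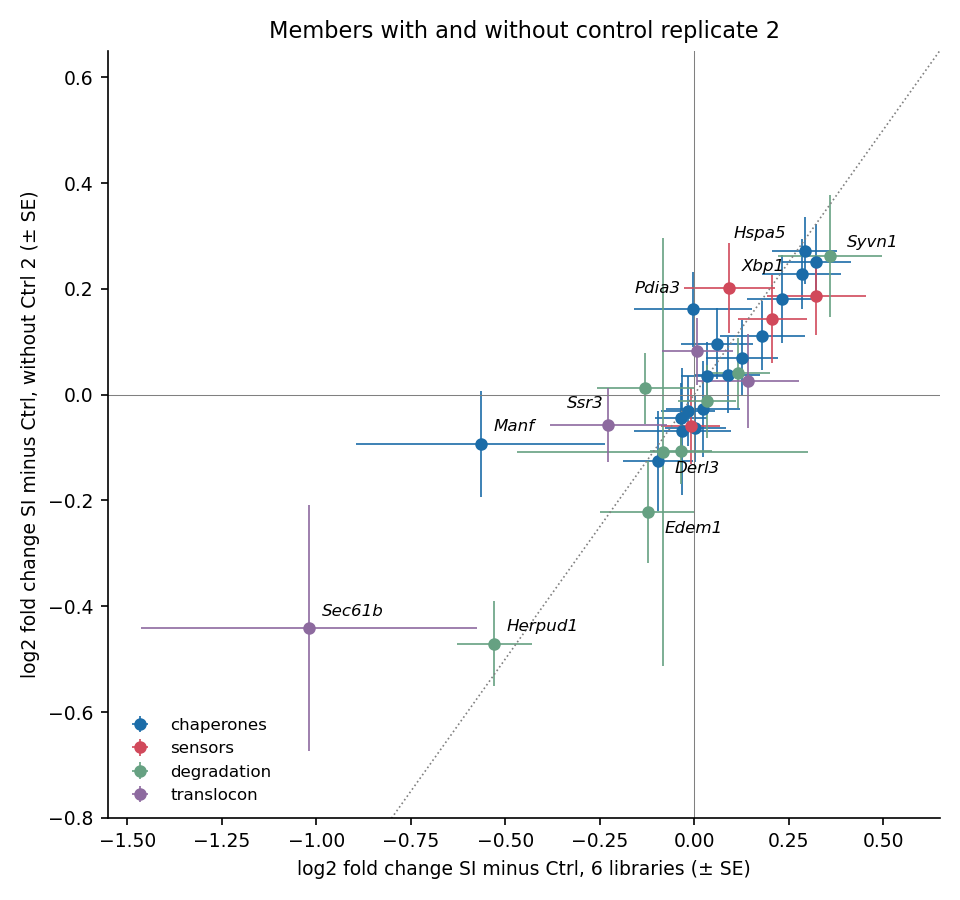
Log2 fold change of each of the 33 members, knockdown minus control, over 6 libraries (horizontal axis) against the same without control replicate 2 (vertical axis); points are coloured by class, bars are SE, and the dotted line marks equal values. Herpud1 lies near the line at -0.53 and -0.47, whereas Sec61b and Manf lie far to the left of it, at -1.02 and -0.56 over 6 libraries.

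Syvn1 (HRD1), the ubiquitin ligase of the same complex, stood at 68.3, 51.7 and 57.2 CPM in control cells and 71.7, 86.4 and 69.4 in the knockdown. The margin between the groups was about 1 CPM, and the log2 fold change was 0.36 ± 0.14 (edgeR adjusted p = 0.351) and 0.26 ± 0.12 without control replicate 2 (edgeR adjusted p = 0.252). The Syvn1 gene shares 83 bases with Mrpl49 on the opposite strand, and without strand the reads there cannot be told apart. Mrpl49 had a log2 fold change of -0.63 over 6 libraries and of -0.08 without control replicate 2. Sel1l, the partner of Syvn1, had 0.12 ± 0.09, and 0.04 ± 0.07 without control replicate 2, and overlapped in both.

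Derl2, which with Derl1 and Derl3 forms part of the exit channel, stood at 54.2, 72.8 and 55.2 CPM in control cells and 54.5, 55.5 and 56.4 in the knockdown. Its log2 fold change of -0.13 ± 0.13 became 0.01 ± 0.07 without control replicate 2, and the gene shares 231 bases with Mis12 on the opposite strand. Derl1 had 0.03 ± 0.08, and -0.01 ± 0.07 without that library. Derl3 was barely expressed, at 0.593 to 1.16 CPM over the 6 libraries and 144 counts in all, too few to show a difference of the size seen in Herpud1 (SE 0.38). Edem1 and Os9, lectins that select glycoproteins for degradation, had log2 fold changes of -0.12 ± 0.13 and -0.03 ± 0.08. Once control replicate 2 was left out, both were lower in every knockdown library than in the 2 controls, with log2 fold changes of -0.22 ± 0.10 for Edem1 (edgeR adjusted p = 0.2502) and -0.11 ± 0.06 for Os9 (edgeR adjusted p = 0.375). The groups of Hsp90b1, Pdia3, Xbp1 and Ssr1 (higher) and of Dnajc3 (lower) also separated only then. Separating 3 libraries from 2 is a weaker criterion than 3 from 3, and its share among all genes was not computed.

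Control replicate 2 held the highest or the lowest level of the 6 libraries for all 4 translocon members. Of the 15307 genes tested it held the highest level of 5271 and the lowest of 5920. Sec61b, a small subunit of the Sec61 channel, stood at 63.7, 209 and 103 CPM in control cells and 71.0, 44.2 and 70.5 in the knockdown. The log2 fold change was -1.02 ± 0.44 (edgeR adjusted p = 0.357) and -0.44 ± 0.23 without control replicate 2 (edgeR adjusted p = 0.328). Sec61a1, the pore-forming subunit, went the other way in that library, at 298, 232 and 294 CPM against 324, 269 and 318, with 0.14 ± 0.13 and 0.03 ± 0.09. Ssr3 and Ssr1, subunits of the translocon-associated protein complex, had log2 fold changes of -0.23 ± 0.15 and 0.01 ± 0.09 over 6 libraries. These became -0.06 ± 0.07 and 0.08 ± 0.06 without control replicate 2, where Ssr1 no longer overlapped between the groups. Ssr3 stood at 319, 447 and 321 CPM in control cells and 324, 291 and 312 in the knockdown.

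Gene length moved with these values. Control replicate 2 held the highest level of 8 of the 33 members and the lowest of 15, against 5271 and 5920 of the 15307 genes tested. Across the 33 members Spearman's rho between gene length and the ratio of control replicate 2 to the mean of the other controls was -0.30, and across 14636 genes tested it was -0.29. In a wider list of 32 other translocation genes, many of them small subunits, rho was -0.51. The trend was not particular to that library: between gene length and the ratio of control replicate 3 to control replicate 1, rho was -0.48 in the members, -0.63 in the translocation list and -0.24 over all genes. Without control replicate 2 the log2 fold change also moved with length, with rho of 0.32, 0.57 and 0.14 in the same order. These are correlations across genes that share the same libraries, given as a description. Tmem258 and Ost4, small subunits of the oligosaccharyltransferase, were 7.18 and 5.67 times as high in control replicate 2 as in the other controls, Dad1 of the same complex 5.45 times, and Spcs1 of the signal peptidase 5.27 times. Sec61g, the third Sec61 subunit, was 4.12 times as high there. Among the members, Sec61b was 2.505 times and Manf 2.19 times as high. The part of length in these values was not tested.

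**Figure D4:**
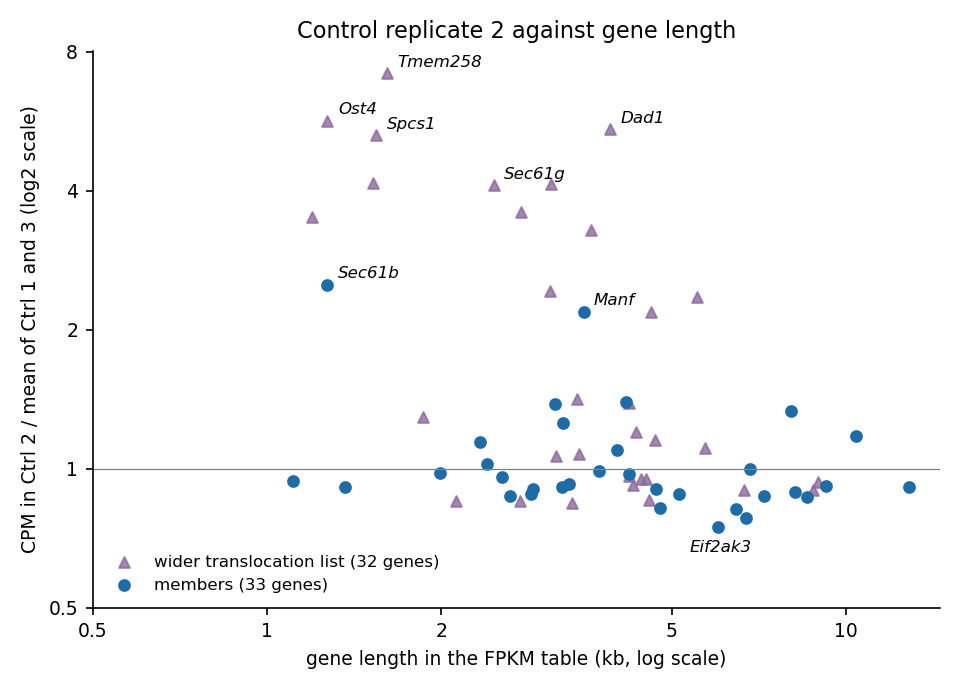
Level in control replicate 2 over the mean of control replicates 1 and 3 (vertical axis, log2 scale) against gene length in the FPKM table (horizontal axis, kb, log scale) for the 33 members (circles) and 32 wider translocation genes (triangles). The highest ratio is 7.18 for Tmem258 (1611 bases). Dad1 (5.45), Ssr4 (4.14) and Sec61g (4.12) are high as well but longer, at 3916, 3096 and 2464 bases. Sec61b (2.505) and Manf (2.19) are the highest members, whereas the short members Sdf2l1 (1108 bases) and Creld2 (1366 bases) lie at 0.94 and 0.91.

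Genes of the same pathways outside the members were read from wider lists, of which 117 genes matched the table and 115 were tested over 6 libraries. No gene of them was called by edgeR over 6 libraries, with 5 higher and 20 lower at an unadjusted p under 0.05 (7.47% and 6.65% of all genes). With 5 libraries, 4 were called lower and 0 higher, and DESeq2 on 6 libraries called 4 lower and 0 higher, namely Chac1, Nupr1, Asns and, outside the PERK outputs, Dnajb14. All 4 genes called by edgeR belonged to the 9 listed outputs of PERK and Atf4, where 0.675% of all genes were called lower. The lists were chosen with earlier results of these data known, so this count is a description, and no test of the set was run. The median log2 fold change of the 9 was -0.44, and -0.35 without control replicate 2.

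Chac1, a glutathione-degrading enzyme induced by Atf4, stood at 19.96, 16.6 and 19.5 CPM in control cells and 10.1, 11.1 and 8.53 in the knockdown. Without control replicate 2 it fell by 1.00 on the log2 scale (SE 0.12, edgeR adjusted p = 0.0115). Asns, asparagine synthetase, stood at 158, 254 and 164 CPM against 112, 120 and 113, and fell by 0.49 (SE 0.07, edgeR adjusted p = 0.0142). Trib3, a pseudokinase that restrains Atf4, stood at 14.5, 12.9 and 17.3 CPM against 10.99, 10.3 and 9.27, and fell by 0.65 (SE 0.12, edgeR adjusted p = 0.0419). Nupr1, a stress-induced chromatin protein, stood at 26.2, 71.4 and 30.96 CPM against 18.01, 15.4 and 15.4, and fell by 0.82 (SE 0.11, edgeR adjusted p = 0.0142). All 4 were lower in every knockdown library, with and without control replicate 2. Over the 18 alternatives the adjusted p lay between 8.37e-09 and 0.645 for Chac1, 3.49e-08 and 0.675 for Asns, 0.00111 and 0.691 for Trib3, and 2.36e-07 and 0.675 for Nupr1.

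The regulator of these genes and its partner were not called. Atf4 mRNA stood at 201, 240 and 208 CPM in control cells and 198, 200 and 183 in the knockdown, with a log2 fold change of -0.16 ± 0.10 and -0.09 ± 0.07 without control replicate 2. Ddit3 (CHOP) stood at 14.0, 22.4 and 12.8 CPM against 13.1, 12.3 and 10.8, with -0.44 ± 0.23 and -0.16 ± 0.12. Atf3 overlapped between the groups, at 0.30 ± 0.22 and 0.08 ± 0.09. Atf4 is controlled mainly in translation, which mRNA counts do not show.

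The CARE letters were in 5 of the 9 promoters of these outputs (Atf3, Asns, Chac1, Nupr1 and Trib3), and 4 of these 5 were the genes called lower without control replicate 2. Among all 286 genes with the letters that were tested there, 9 were called lower (3.15%) and 6 higher (2.10%). The shares of all genes were 0.675% and 1.11%. Of the 9, 5 are Herpud1 and these 4 genes, and the median log2 fold change of all 286 was -0.04. The outputs were listed with earlier results of these data known, so these counts are a description only. The part of Atf4 in them was not tested. The matches are shown because Herpud1, the member called lower, was the only member to hold one. Herpud1 and Chac1 lie on the + strand and the other genes on the - strand.
Herpud1, chr8:94386311-94386330: ggcgggTTGCATCAgcccgc
Chac1, chr2:119351043-119351062: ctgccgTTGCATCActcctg
Nupr1, chr7:126625567-126625586: gccagaTTGCATCAgacagg
Atf3, chr1:191183430-191183449: tcgcacTTGCATCAccaagt
Trib3, chr2:152344033-152344052: tcaggtTTACATCAgccggg
Asns, chr6:7693219-7693238: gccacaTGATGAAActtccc

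The members that hold an ERSE had a median log2 fold change of 0.06 (9 genes), and 0.07 without control replicate 2, against 0.00 and 0.04 for the other members with a window. The 6 members without a window are in neither group. Hspa5 and Calr lay at the upper end of the 9, with Syvn1, and Pdia6, Derl3, Creld2 and Dnajc3 lay below 0 without control replicate 2. The element was thus held both by members that were higher in the knockdown and by members whose values did not separate the groups.

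**Figure D5:**
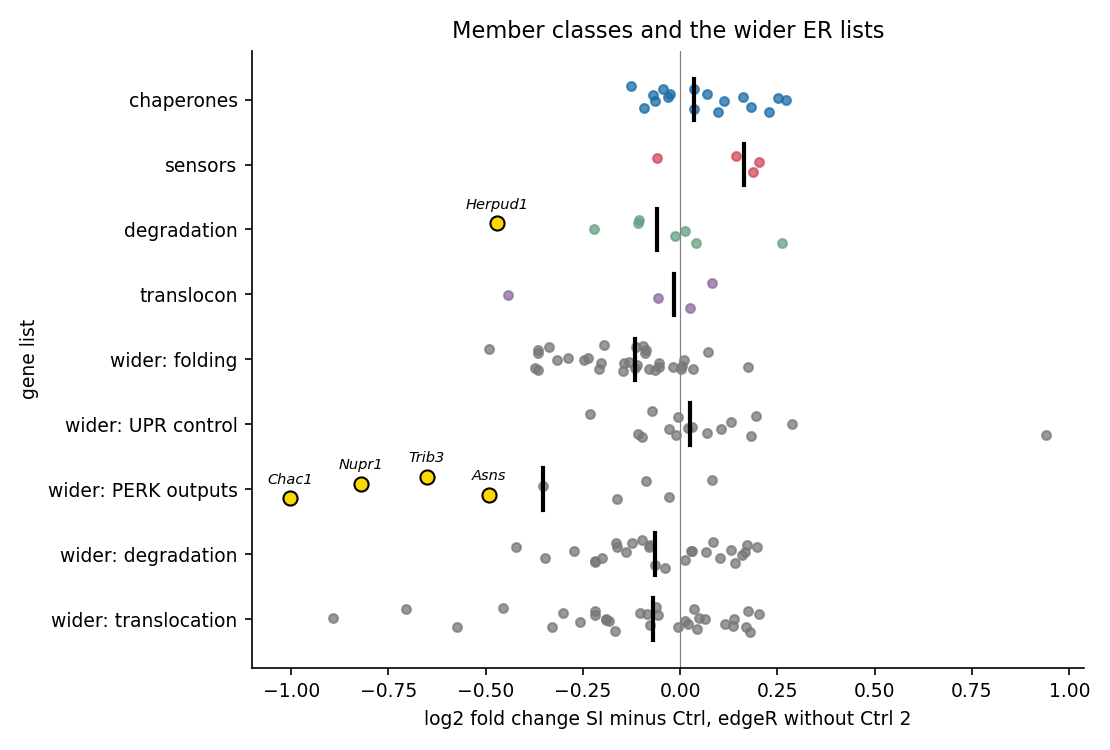
Log2 fold change, knockdown minus control, from edgeR without control replicate 2 (horizontal axis) for the genes of the 4 member classes and 5 wider lists (rows); each point is a gene, black bars are medians, and gold points passed an adjusted p under 0.05. The 5 gold points, Herpud1 and 4 PERK outputs, all lie below 0, and the highest point, Creb3l4 at 0.94, stayed below 0.5 CPM in every library.

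In the other wider lists without control replicate 2, edgeR called no gene. At an unadjusted p under 0.05 it gave 1 of 33 folding genes higher and 10 lower, 3 of 16 UPR control genes higher and 0 lower, 3 of 27 degradation genes higher and 4 lower, and 3 of 32 translocation genes higher and 7 lower (9.54% and 10.3% of all genes). DESeq2 without that library called 3 genes outside the PERK outputs, of which Dnajb14 was called with all 6 libraries as well. These were Creb3l2, an ER-bound transcription factor of the Atf6 kind, at 217, 172 and 194 CPM against 248, 246 and 263 (log2 fold change 0.29, adjusted p = 0.0110), Prdx4, an ER peroxiredoxin, and Dnajb14, an ER J-protein, both lower (log2 fold changes -0.36 and -0.42). Prdx4 stood at 92.0, 383 and 113 CPM in control cells and 81.8, 78.0 and 80.0 in the knockdown. Dnajb14 stood at 31.1, 29.8 and 32.3 CPM against 24.1, 22.2 and 25.2. The count of 1 higher and 2 lower is to be read against 3.46% and 2.44% of all genes in that fit, and is no more than that background.

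Levels per length, as the deposited FPKM averaged over the 5 libraries without control replicate 2, ranged among the members from 449 for P4hb to 0.426 for Derl3. Calr (321), Pdia3 (184), Hspa5 (143) and Hsp90b1 (133) followed P4hb, and the 8 highest members were chaperones save Ssr3. Sensors lay low, with 11.3 for Eif2ak3, 10.4 for Xbp1, 7.91 for Atf6 and 5.94 for Ern1. Herpud1 (37.3) lay in the middle, at rank 16 of 33.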

How the data were processed

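mRNA of 3 control and 3 knockdown samples of MLE12 cells was sequenced. Libraries were made with the NEBNext Ultra kit and read as pairs on an Illumina HiSeq instrument. The submitters' processing notes name HISAT2 (2.0.5), StringTie (1.3.3b), featureCounts (1.5.0-p3) and build mm10, without roles, and the protocol also names Trinity; strand use is not given. The authors deposited raw read counts per Ensembl gene, 1 column per library, and FPKM values, which are the counts divided by the table's gene length and by a composition-adjusted library size.

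Counts were filtered with filterByExpr, scaled by TMM and tested with edgeR's quasi-likelihood test (edgeR 4.0.16, R 4.3.3) over all 6 libraries, and p-values were adjusted (Benjamini-Hochberg) across the 15307 tested genes. Called means an adjusted p under 0.05. CPM uses TMM-scaled library sizes. DESeq2 (1.42.0), limma (3.58.1) on log2(FPKM + 1) and log2(FPKM + 0.1) for genes of mean FPKM of at least 0.5, voom with quality weights, other scalings and filters, a replicate block and each library left out were alternatives. The study's methods name no test for these counts. Exact permutation tests of 3 against 3 cannot go below p = 0.1 and were not used. The scripts were tested on simulated counts. Totals of 27273502 to 28535653 counts set the counting error, which is largest for low genes such as Derl3, with 144 counts in all.

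The members and lists were chosen with earlier results of these data known. Values per library are given for members called by edgeR with or without control replicate 2, the 3 with the largest fold change in each class and the named sensors and chaperones. For the wider lists they are given for genes called by edgeR in either fit, up to 5 with the largest change, and for Atf4 and Ddit3. Others were named after their values were seen.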

Additional observations from a re-analysis of the deposited data

How the results depend on the processing

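Calls depended on the test and on control replicate 2. The counts of members called higher and lower were 0 and 0 in the reported fit, and stayed so in edgeR with median-of-ratios factors, a minimum of 10 counts per library, library size only, a replicate block or no filter, in both limma fits on FPKM, and without any other single library. Leaving out 1 library at a time gave 0 members higher and 0 to 1 lower, 0 wider genes higher and 0 to 4 lower, and 0 to 175 genes of all higher and 0 to 106 lower, against 9 and 1 in the reported fit.
DESeq2 called 1 member higher and 1 lower, 4 wider genes lower, and 265 of all genes higher and 192 lower. Without control replicate 2 it called 3 and 1 members, 1 and 6 wider genes, and 543 and 383 of all. Voom with quality weights called 5 and 1 members, 6 and 18 wider genes, and 1327 and 971 of all, with a member median of 0.063. An unadjusted p under 0.05 gave 6 and 1 members, 5 and 20 wider genes, and 1144 and 1018 of all. Without control replicate 2, edgeR with median-of-ratios factors gave 1 member and 4 wider genes lower, and 179 and 102 of all; with library size only it gave 1 and 4 lower, and 178 and 105 of all. The 3 settings that join leaving out that library to another test or scaling were chosen after seeing the data. Over 6 libraries, library size only called 1 gene of all higher and 0 lower, no count filter 3 lower, limma on log2(FPKM + 1) 3 lower and on log2(FPKM + 0.1) 0 and 0.

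Library size only moved the medians to 0.20 (members), 0.21 (chaperones), 0.33 (sensors), 0.10 (degradation) and 0.10 (translocon), since control replicate 2 then carries no composition factor. Leaving out 1 library at a time gave medians of 0.00041 to 0.054 for the members, 0.027 to 0.072 for chaperones (0.033 as reported, highest without control replicate 3), 0.115 to 0.177 for sensors, -0.080 to 0.035 for degradation and -0.18 to -0.016 for the translocon (-0.11 as reported, lowest without control replicate 3). Of the 23 named genes recomputed under every setting, the sign changed for Atf6 (-0.01 as reported, 0.15 with library size only, 0.00059 with no filter, and -0.059 to 0.035 with 1 library left out), for Derl2 (-0.13 as reported, 0.081 with library size only, -0.21 to 0.012 with 1 library left out, and without control replicate 2 0.017 by DESeq2 and by median-of-ratios factors and 0.025 by library size only) and for Atf4 (-0.16 as reported, 0.033 with library size only). Among the other members the sign also changed without control replicate 2 for Creld2 (0.02 to -0.03), Derl1 (0.03 to -0.01), Dnajc3 (0.0026 to -0.06) and Pdia3 (-0.0025 to 0.16). The cause was not tested.

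The replicate numbers share no stated culture or day, and same-numbered libraries did not deviate together (r = -0.15, -0.09 and 0.04). With the number as a replicate block, edgeR called 0 members and 0 wider genes and 0 and 0 of all genes.

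Limits: 3 libraries per group, 1 of them apart from the rest, gave the members' log2 fold changes SEs of 0.07 to 0.44, and even Herpud1, at -0.53 with an SE of 0.10, was not called over 6 libraries; counts per gene show neither Xbp1 splicing nor sensor activity.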
